A study of Sus scrofa with 96 samples.

Results

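Short transcripts were followed through the cartilage and the synovium, the lining of the joint, in knees of Yucatan minipigs 52 weeks after surgery on the anterior cruciate ligament (ACL). They are the 200 transcripts with the highest mean CPM, the reads of a transcript relative to all reads counted in a library, among the 748 transcripts of at most 300 bases, out of 46295 transcripts in the pig annotation used. They were chosen by the length given in the deposited files and by their mean CPM over 94 libraries, so the high abundance of these transcripts is a consequence of the rule and not a finding. At the edge of the choice, the transcript of rank 200 had a mean of 0.0514 CPM and the next one a mean of 0.0512 CPM. Not a single count fell on 282 of the 748 short transcripts over the 94 libraries, and the 200 members held 99.7% of all counts on short transcripts.

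The animals were 36 adolescent minipigs whose ACL was cut in 1 knee. The ligament was then left untreated (ACLT), reconstructed (RECON) or repaired with an extracellular matrix scaffold (REPAIR), and the contralateral knees of some of the same animals served as controls (CON). CON knees therefore came from animals that had also undergone surgery, and none came from an unoperated animal. The groups used here had 12 CON, 11 ACLT, 12 RECON and 12 REPAIR knees. Each knee gave 1 cartilage library from the medial femoral condyle and 1 synovium library taken beside the medial meniscus. Knee ACLT 12 is missing from the study's list of RNA quality and was left out of the 94 libraries. Its members took 0.0474% of the cartilage counts and 0.0821% of the synovium counts. RNA was depleted of ribosomal RNA and sequenced as paired reads of 100 bases.

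An annotated transcript this short can be a small RNA, a short coding sequence or an incomplete model of a longer gene. Sequencing libraries of long RNA hold fragments within a range of sizes, so that a transcript near or below the fragment size gives few fragments, and its effective length, which is the number of positions at which a fragment could start, is much smaller than its true length. The RNA integrity number (RIN) describes how far ribosomal RNA has been broken down, with high values for intact RNA. RNA extracted from cartilage, a tissue with few cells in a dense matrix, is often partly degraded. The deposited files pair no transcript identifier with a gene name, so the members are described by identifier, rank of abundance and length.

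The members were 99 to 300 bases long, with a median of 243 bases, against a median of 2669 bases over all 46295 transcripts. A length divisible by 3, as a complete coding sequence without untranslated regions has, was found for 81.0% of the members, for 92.4% of the 748 short transcripts and for 40.8% of all transcripts. The mean fragment length of the 94 libraries ran from 181 to 228 bases with a median of 204 bases, and 40 members were shorter than that median. The members' effective length had a median of 33.2% of their length. For the most abundant member, of 204 bases, the effective length was 52.9 bases.

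Abundance fell steeply with rank. The first member had a mean of 259.9 CPM, the sixth 31.4 CPM, the 50th 1.17 CPM and the 100th 0.390 CPM. The 5 most abundant members held 72.9% of the members' summed mean CPM, and the 20 most abundant held 87.3%. Of the 200 members, 9 had a mean of at least 10 CPM and 61 a mean of at least 1 CPM. A count was found in all 94 libraries for 58 members and in fewer than 47 libraries for 37 members. By length, the 1 member of at most 100 bases held 0.259% of the members' CPM, the 35 members of over 100 and up to 200 bases 2.38%, the 76 of over 200 and up to 250 bases 38.9% and the 88 of over 250 and up to 300 bases 58.5%.

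**Figure D1:**
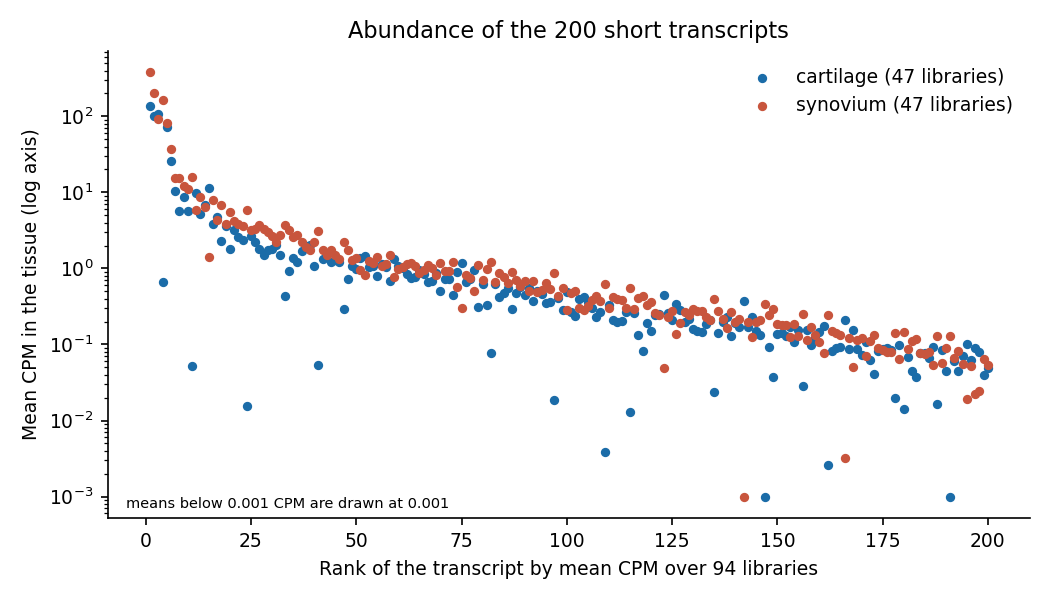
Mean CPM of each of the 200 short transcripts in the 47 cartilage and the 47 synovium libraries (y axis, log scale) against the rank of its mean CPM over all 94 libraries (x axis). Apart from rank 4 in cartilage, the means fall from over 50 CPM in the first 5 ranks to about 1 CPM near rank 50. The points that hang far below the rest, such as ranks 4, 11 and 24 in cartilage, are transcripts found almost only in the other tissue.

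The deposited counts are estimates in which a read shared by several transcripts is divided among them, so a count that is not whole marks shared reads. For 63 members the count was whole, to within 0.0005, in under 10% of the libraries with a count, and for 87 members it was whole in over 90%. Among the 20 most abundant members, 13 had whole counts in under 10% of their libraries. The values of such members depend on how reads were divided and are uncertain for that reason.

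The most abundant member, ENSSSCT00000019675.1 (204 bases), had counts that were never whole. In CON cartilage it ranged from 93.0 to 224.0 CPM with a median of 137.2 CPM, and in CON synovium from 240.2 to 608.8 CPM with a median of 375.0 CPM. The groups did not overlap, and synovium was higher in all 12 CON knees. The second, ENSSSCT00000019681.2 (297 bases), ran from 79.6 to 153.7 CPM with a median of 102.0 CPM in CON cartilage and from 143.8 to 310.6 CPM with a median of 185.8 CPM in CON synovium.

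ENSSSCT00000074749.2 (261 bases) had medians of 99.9 CPM in CON cartilage, within 79.5 to 137.8 CPM, and 92.1 CPM in CON synovium, within 66.9 to 121.7 CPM. ENSSSCT00000076495.2 (257 bases) had medians of 64.0 CPM in CON cartilage, within 46.4 to 109.2 CPM, and 83.0 CPM in CON synovium, within 64.7 to 117.5 CPM. The ranges of the tissues overlapped for both. Within the knee, ENSSSCT00000074749.2 was higher in cartilage in 9 of 12 CON knees and ENSSSCT00000076495.2 higher in synovium in 11 of 12.

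The fourth member, ENSSSCT00000100547.1 (261 bases), was of another kind. It had a count in 8 of 47 cartilage libraries, at 1 CPM or more in 4 of them and at 22.9 CPM in the highest. In synovium it ran from 0 to 68.3 CPM in CON knees and from 0 to 1990 CPM after ACLT. Its place among the 5 most abundant members rested on 10 synovium libraries above 100 CPM, all from operated knees.

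The shortest of the 50 most abundant members was ENSSSCT00000099555.1 (99 bases), at rank 29. All of its counts were whole, and its effective length was given as 1.00 base in the files. It was found in all 94 libraries, with a range of 1.31 to 2.40 CPM and a median of 1.93 CPM in CON cartilage and a range of 2.31 to 5.21 CPM and a median of 2.75 CPM in CON synovium. On the scaled counts described next, the difference between the tissues in CON knees was -0.16 ± 0.17 (log2, SE), with an adjusted p of 0.490 in edgeR's quasi-likelihood test.

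Short transcripts took a larger part of the counts in synovium than in cartilage. In CON cartilage the 200 members held 0.0519% to 0.0847% of all counts, with a mean of 0.0643% ± 0.01003 (SD, n = 12). In CON synovium they held 0.0923% to 0.139%, with a mean of 0.108% ± 0.0137 (SD, n = 12). The lowest CON synovium library was above the highest CON cartilage library, and the ratio of the means was 1.69. The share over the 94 libraries rests on 4537 to 40740 counts on the members per library. No test was made of a share, because the members were chosen for their abundance in these libraries.

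The size of that difference depended on the scale. The 10 most abundant transcripts of any length took 32.9% ± 3.38 (SD, n = 12) of the counts in CON cartilage and 18.1% ± 2.93 (SD, n = 12) in CON synovium. Dividing each share by the library's TMM factor, which sets libraries by the bulk of their transcripts and not by the total, gave 0.0747% ± 0.0114 in CON cartilage and 0.0847% ± 0.00857 in CON synovium (SD, n = 12 each), a ratio of 1.13. Without the most abundant member the ratio of the plain shares was 1.40.

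The same members took a far larger part of the deposited TPM values, a relative abundance that divides counts by effective length. Their share of TPM had a mean of 2.55% ± 0.376 in CON cartilage and 4.10% ± 0.564 in CON synovium (SD, n = 12 each). The share of TPM was 39.6 times the share of counts in CON cartilage and 37.8 times in CON synovium.

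By length, the mean plain share was higher in CON synovium than in CON cartilage in each class. Shares by class were not divided by the TMM factor, so how far they depend on the scale was not examined. Members of at most 200 bases held 0.00187% of CON cartilage counts and 0.00326% of CON synovium counts, on average. Those of over 200 and up to 250 bases held 0.0255% and 0.0515%, and those longer still 0.0369% and 0.0537%.

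In cartilage the share after surgery lay within the range of CON knees or close to it. The means were 0.0637% ± 0.00781 after ACLT (SD, n = 11), 0.0601% ± 0.00723 after RECON (SD, n = 12) and 0.0597% ± 0.00756 after REPAIR (SD, n = 12). Over the 35 operated knees the share ran from 0.0443% to 0.0781%, and its mean was 0.949 times that of CON cartilage.

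In synovium the mean share was higher after surgery and its spread was wider. The means were 0.151% ± 0.0743 after ACLT (SD, n = 11), 0.119% ± 0.0391 after RECON (SD, n = 12) and 0.115% ± 0.0363 after REPAIR (SD, n = 12). The medians were 0.107% in CON, 0.126% in ACLT, 0.104% in RECON and 0.101% in REPAIR, so that RECON and REPAIR had higher means but lower medians than CON. The highest library was ACLT 8 at 0.310%, and the lowest was ACLT 10 at 0.0763%. Each operated group overlapped the CON range.

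Most of the wider spread lay in the fourth member. Without it, the mean share in synovium was 0.107% ± 0.0134 in CON, 0.111% ± 0.0206 in ACLT, 0.107% ± 0.0207 in RECON and 0.1004% ± 0.0158 in REPAIR (SD, n = 12, 11, 12 and 12). The ratio of operated to CON synovium fell from 1.18 with all 200 members to 0.993 without that 1 transcript, and the ratio of ACLT to CON synovium from 1.39 to 1.04. Without knee ACLT 8 and with all members, the ratios were 1.13 and 1.24. All of these are ratios of plain shares. With all members and each share divided by the TMM factor, the ratios were 1.31 and 1.54. The share without the fourth member was not compared on that scale.

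**Figure D2:**
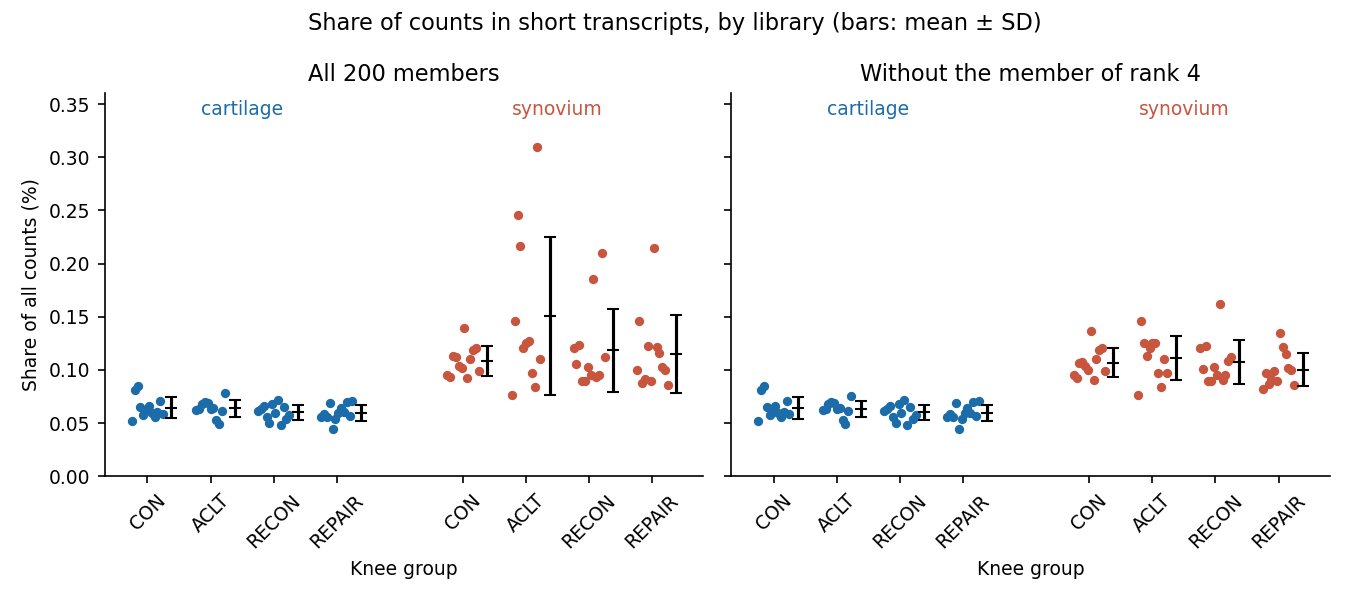
Share of all counts on the short transcripts (y axis, %) in each library, by knee group and tissue (x axis), for all 200 members (left) and without the member of rank 4 (right); each point is 1 library, and bars give mean ± SD. CON synovium lies above CON cartilage in both panels, while a few operated synovia lie within the range of the cartilage libraries. The operated synovium libraries near 0.2% to 0.3% in the left panel are gone in the right one.

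Differences between groups for single members were tested with edgeR across all transcripts that passed a filter on low counts, 101 of the 200 members among them. The 99 others, with a median of 0.159 CPM against 1.17 CPM for those tested, have no test and together held 1.84% of the members' CPM. Log2 fold changes here are on counts scaled by TMM, whereas CPM values are relative to each library's total. Adjusted p is by Benjamini and Hochberg over all transcripts tested, and a member is said to have risen or fallen at an adjusted p under 0.05. The replicates are knees of different animals within a group.

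In CON knees, 31 of the 101 members tested differed between cartilage and synovium, 13 higher in cartilage and 18 higher in synovium. This was 30.7% of them, against 47.1% of all 30447 transcripts tested, with 22.7% of all transcripts higher in cartilage and 24.4% higher in synovium. Those higher in synovium include the members of rank 4, 11 and 24, which are treated below and owe their mean CPM to a minority of operated synovia. The median log2 difference was -0.06 over the members and -0.01 over all transcripts. The split leaned on the scaling. With library totals in place of TMM, 4 members were higher in cartilage and 46 higher in synovium. Of all 30447 transcripts, 3045 were then higher in cartilage and 14407 higher in synovium, and their median moved to -0.57.

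Of the members higher in cartilage, the smallest adjusted p belonged to ENSSSCT00000052366.2 (201 bases, rank 12). It ran from 7.81 to 15.4 CPM with a median of 8.81 CPM in CON cartilage and from 4.84 to 8.10 CPM with a median of 6.29 CPM in CON synovium. It was higher in cartilage in 11 of 12 CON knees, by a log2 fold change of 1.19 ± 0.12 (SE) with an adjusted p of 4.83e-15 in edgeR. ENSSSCT00000072495.1 (249 bases, rank 15) ran from 4.54 to 23.0 CPM with a median of 13.1 CPM in CON cartilage and from 0.462 to 5.75 CPM with a median of 1.23 CPM in CON synovium. It was higher in cartilage in 12 of 12 knees, by 3.60 ± 0.38 on the log2 scale with an adjusted p of 4.54e-14 in edgeR. Both were among the 4 members that were also called higher in cartilage with library totals, and nearly all of their counts were whole.

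Of those higher in synovium, ENSSSCT00000098521.1 (180 bases, rank 34) ran from 0.553 to 1.62 CPM with a median of 0.963 CPM in CON cartilage and from 2.46 to 4.69 CPM with a median of 3.55 CPM in CON synovium. The groups did not overlap, and the log2 fold change of cartilage against synovium was -1.23 ± 0.21 (SE) with an adjusted p of 4.37e-07 in edgeR. For ENSSSCT00000019675.1, the most abundant member, it was -0.85 ± 0.15 with an adjusted p of 8.02e-07. The second most abundant, ENSSSCT00000019681.2, did not pass at -0.27 ± 0.13 with an adjusted p of 0.0849, although its CPM was higher in synovium in 12 of 12 knees. With the animal as a block it was called, at -0.31 ± 0.11 with an adjusted p of 0.0350. ENSSSCT00000074749.2, the third, was called higher in cartilage by 0.71 ± 0.15 with an adjusted p of 3.25e-05, and its difference was 0.15 with an adjusted p of 0.358 with library totals.

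In operated knees, with 35 of each tissue, 60 of the 101 members differed between the tissues (59.4%, against 65.9% of all transcripts). They included 27 of the 31 called in CON knees, all 27 in the same direction.

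A few less abundant members were close to being found in 1 tissue. The member of rank 41, of 148 bases, had a count in 47 of 47 synovium and 15 of 47 cartilage libraries, with a mean of 4.21 CPM in CON synovium and a highest value of 0.404 CPM in any cartilage library. The member of rank 33, of 225 bases, had means of 0.376 CPM in CON cartilage and 3.74 CPM in CON synovium. They were named after their values were seen, since the CPM minimum of the naming rule leaves them out, and are given as a description with no test.

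In synovium, 16 of the 101 members tested changed between the 35 operated and the 12 CON knees, with 9 higher and 7 lower. That was 15.8% of the members, against 18.4% of all 30447 transcripts, of which 9.16% were higher and 9.24% lower. With a weaker filter, which asked only for a count in 2 libraries and let all 200 members be tested, 21 of them (10.5%) were called, against 17.3% of all transcripts. No test was made of a difference between members and other transcripts. The median log2 fold change was -0.02 over the members tested and -0.02 over all transcripts. With library totals in place of TMM, 5 members were higher and 14 lower. Of all 30447 transcripts, 1394 were then higher and 5111 lower, and their median moved to -0.18. Apart from 3 members treated below, the changes were small, all under 1 on the log2 scale.

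ENSSSCT00000016710.5 (291 bases, rank 9) rose most clearly after surgery. It ran from 7.63 to 12.6 CPM with a median of 10.1 CPM in CON synovium, and had medians of 11.6 CPM after ACLT, 13.5 CPM after RECON and 12.3 CPM after REPAIR, with a highest value of 20.4 CPM. Of the 35 operated synovia, 30 were above the CON median and 18 above the highest CON value. The log2 fold change was 0.50 ± 0.12 (SE) with an adjusted p of 7.33e-04 in edgeR. It was 0.44 with an adjusted p of 0.0742 when the knees of 12 animals were compared within the animal.

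ENSSSCT00000075128.1 (180 bases, rank 37) ran from 1.03 to 2.48 CPM with a median of 1.63 CPM in CON synovium, and had medians of 2.58, 2.31 and 2.44 CPM after ACLT, RECON and REPAIR. It was above the CON median in 26 of 35 operated synovia. The log2 fold change was 0.69 ± 0.17 (SE) with an adjusted p of 0.00180 in edgeR, and 0.62 with an adjusted p of 0.182 within the animal. The counts of both transcripts were whole in under 10% of the libraries.

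Among those that fell, ENSSSCT00000095611.1 (219 bases, rank 17) ran from 3.75 to 7.51 CPM with a median of 5.85 CPM in CON synovium, and had medians of 3.67, 3.69 and 4.45 CPM after ACLT, RECON and REPAIR. It was below the CON median in 34 of 35 operated synovia. The log2 fold change was -0.39 ± 0.11 (SE) with an adjusted p of 0.00730 in edgeR, and -0.46 with an adjusted p of 0.130 within the animal. ENSSSCT00000072987.2 (298 bases, rank 39) ran from 1.67 to 3.80 CPM with a median of 2.22 CPM in CON synovium, and had medians of 1.26, 1.27 and 1.52 CPM after the 3 operations. It was below the CON median in 31 of 35 operated synovia and below the lowest CON value in 25. The log2 fold change was -0.46 ± 0.15 with an adjusted p of 0.0197, and -0.68 with an adjusted p of 0.186 within the animal.

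**Figure D3:**
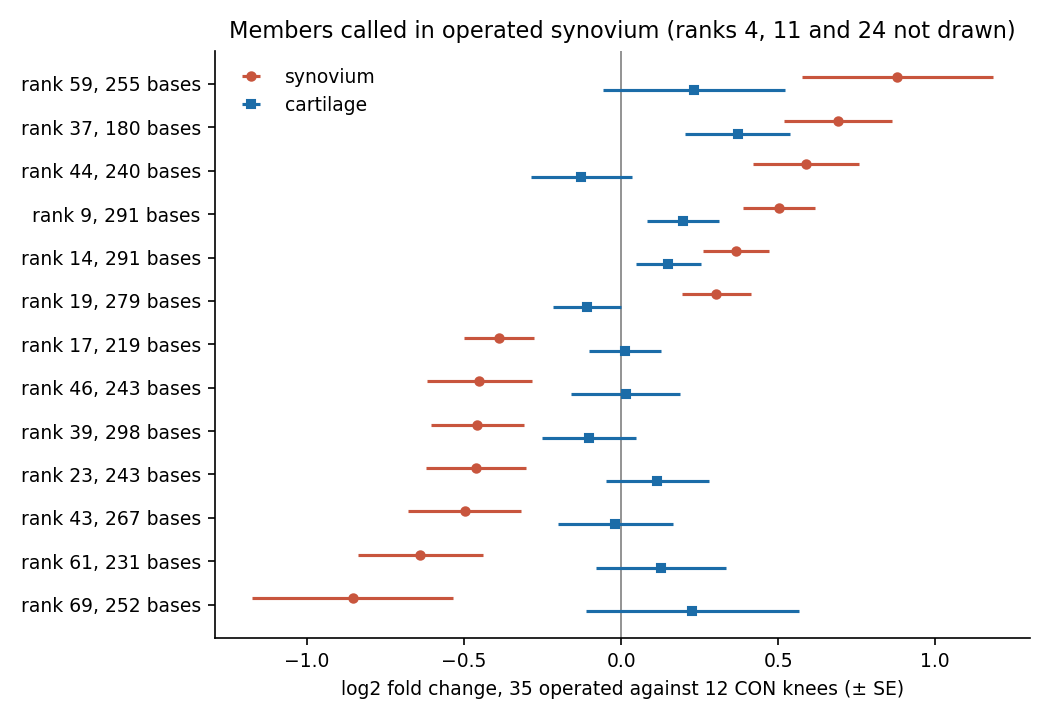
Log2 fold change of 35 operated against 12 CON knees (x axis, with SE) for 13 of the 16 members called in synovium (y axis, named by rank and length), in synovium and in cartilage. The 6 that rose and the 7 that fell in synovium all had changes under 1 in size, and none of them was called in cartilage.

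Compared within the 12 animals that gave both a CON and an operated knee, 1 member was called, of 148 bases at rank 41 and lower in operated synovium by 0.87 ± 0.25 (log2, SE; adjusted p = 0.0491 in edgeR), named here after its values were seen. This was 0.99% of the members tested, against 8.34% of all transcripts. The same 24 knees without the animal as a block also gave 1 call, ENSSSCT00000016710.5, against 7.91% of all transcripts. The member of rank 41 was not among the 16 called with all operated and CON synovia. RNA of the operated synovia had a mean RIN of 5.53 ± 1.01 (SD, n = 35) against 6.23 ± 0.830 in CON synovia (SD, n = 12), and with RIN as a covariate 15 members were called, 8 higher and 7 lower, which was 14.9% of them against 17.9% of all transcripts.

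By operation, 9 members were called after ACLT (6 higher, 3 lower), against 8.93% of all transcripts, 10 after RECON (7 higher, 3 lower), against 17.1%, and 3 after REPAIR (all higher), against 8.04%. These comparisons share the 12 CON synovia. ENSSSCT00000016710.5 and ENSSSCT00000075128.1 were called after each operation. Between the operations, 0 members were called in either tissue in edgeR. In each comparison 2 to 5 of 101 had an unadjusted p under 0.05, against 3.85% to 7.77% of all transcripts. Of all transcripts, 0.0263% were called between RECON and ACLT, 0.00985% between REPAIR and ACLT and 0.0821% between REPAIR and RECON in synovium, and 0.0657%, 0.0493% and 0.0854% in cartilage.

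In cartilage, 0 of the 101 members tested were called between operated and CON knees in edgeR or DESeq2, against 0.975% of all transcripts in edgeR. An unadjusted p under 0.05 in edgeR was found for 2 members (1.98%), against 9.74% of all transcripts. The median log2 fold change was 0.03 over the members and 0.01 over all transcripts. Each operation by itself also gave 0 calls among the members in edgeR, against 0.345% of all transcripts after ACLT, 0.998% after RECON and 0.493% after REPAIR. The members at an unadjusted p under 0.05 were 3, 4 and 7. Of the 16 members that changed in synovium, 9 had a fold change of the same sign in cartilage. ENSSSCT00000075128.1, for example, had medians of 1.41 CPM in CON cartilage and 1.79, 1.44 and 1.89 CPM after ACLT, RECON and REPAIR, with a log2 fold change of 0.37 ± 0.17 (SE) and an adjusted p of 0.413.

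The difference between the tissues in their change after surgery was tested directly as an interaction. It was called for 1 of 101 members, against 8.38% of all transcripts. That member, ENSSSCT00000054762.3 (240 bases, rank 44), ran from 0.626 to 2.31 CPM with a median of 1.41 CPM in CON synovium and had medians of 2.05, 1.65 and 1.73 CPM after ACLT, RECON and REPAIR. In cartilage its medians were 1.33 CPM in CON knees and 1.20, 1.15 and 1.22 CPM after the same operations. The log2 fold change after surgery was 0.59 ± 0.17 (SE) in synovium, with an adjusted p of 0.00706, and -0.13 ± 0.16 in cartilage, with an adjusted p of 0.964. Within the animal the change in synovium was 0.39 ± 0.28 with an adjusted p of 0.454. Their difference, cartilage minus synovium, was -0.72 ± 0.23 with an adjusted p of 0.0355 in edgeR, and with library totals -0.61 with an adjusted p of 0.0935.

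The 3 members with large changes in operated synovium were those of rank 4, ENSSSCT00000100547.1, rank 11, ENSSSCT00000036101.3 (300 bases, the longest of the 50 most abundant), and rank 24, of 256 bases. They owed their mean CPM, by which the members were ranked, to a minority of operated synovia with very high values, so their fold changes are given as a description with no p-value. These were 3.76 ± 1.15, 3.80 ± 1.22 and 3.80 ± 1.13 (log2, SE). Within the animal, the changes of ENSSSCT00000036101.3 and rank 24 were 2.88 ± 2.17 and 0.80 ± 1.75. All 3 are among the 9 members counted as higher, but none was called within the animal, and ENSSSCT00000036101.3 was not called with DESeq2. The median of the operated synovia did not follow: for ENSSSCT00000100547.1 it was 6.10 CPM against 6.08 CPM in CON, and for ENSSSCT00000036101.3 it was 0.211 CPM against 0.185 CPM. By operation, the medians of ENSSSCT00000036101.3 were 0.0844 CPM after ACLT, 0 after RECON and 0.442 CPM after REPAIR.

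For ENSSSCT00000100547.1 the CON synovia ran from 0 to 68.3 CPM, with 11 of 12 having a count and none above 100 CPM. After ACLT, 4 of 11 synovia were above 100 CPM while 5 were under 1 CPM. After RECON, 2 of 12 were above 100 CPM and 6 under 1 CPM, and after REPAIR 4 of 12 were above 100 CPM and 1 was under 1 CPM.

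The highest values were 1990 CPM in ACLT 8, 1197 CPM in ACLT 1, 1027 CPM in ACLT 2, 1015 CPM in RECON 8, 807.4 CPM in REPAIR 4 and 493.3 CPM in REPAIR 11. In ACLT 8 this 1 transcript made up 64.3% of the counts on all 200 members, and in ACLT 1, ACLT 2 and RECON 8 it made up 48.8%, 47.5% and 48.3%. The RIN of these 6 synovia was 7.0, 4.4, 5.4, 5.1, 5.7 and 7.2, within a range of 2.8 to 7.3 over all synovia. The synovium with the lowest RIN, ACLT 11, had 2.59 CPM of this transcript.

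ENSSSCT00000036101.3 ran from 0 to 13.2 CPM in CON synovium and reached 204.9 CPM after ACLT, 155.6 CPM after RECON and 36.9 CPM after REPAIR. The transcript of rank 24 ran from 0 to 2.57 CPM in CON synovium and reached 42.4, 35.6 and 74.6 CPM. In cartilage, the highest values of the same pair were 1.503 and 0.337 CPM. Counts were whole in 6.38%, 8.82% and 12.5% of the libraries with a count for ranks 4, 11 and 24.

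The 3 transcripts rose and fell together from synovium to synovium. Over the 47 synovium libraries, Pearson's r with ENSSSCT00000100547.1 on log2(CPM + 0.1) was 0.88 for ENSSSCT00000036101.3 and 0.87 for rank 24, with Spearman's rho of 0.86 for both. Without the 2 libraries farthest from the median of ENSSSCT00000100547.1, r was 0.86 and 0.85. The members next most like it were less abundant, of 273 bases at rank 162 (r = 0.68), 294 bases at rank 97 (r = 0.67) and 294 bases at rank 109 (r = 0.66). All values of a library share its depth and any reads divided among transcripts, and these correlations are descriptions with no test.

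The pattern was not limited to short transcripts. Of the 33252 transcripts of any length with a count in at least 10 synovium libraries, 32 had a Spearman's rho above 0.8 with ENSSSCT00000100547.1, and 2 of these were members. The highest rho was 0.95. These transcripts had a median of 18.2 CPM in synovium.

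In the 12 animals with both knees, ENSSSCT00000100547.1 was higher in the operated synovium in 8 and lower in 4. In 1 animal it rose from 1.67 CPM in CON 10 to 493.3 CPM in REPAIR 11, and in another from 19.5 CPM in CON 3 to 1197 CPM in ACLT 1. In the opposite direction it was 42.8 CPM in CON 1 and 0.593 CPM in ACLT 7, and 68.3 CPM in CON 12 and 7.58 CPM in REPAIR 5. Within the animal the log2 fold change was 0.92 ± 1.76 (SE), and the same 24 knees without the block gave 3.65 ± 1.24. For the members together without this transcript, the share of counts was higher in the operated synovium in 7 of 12 animals.

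**Figure D4:**
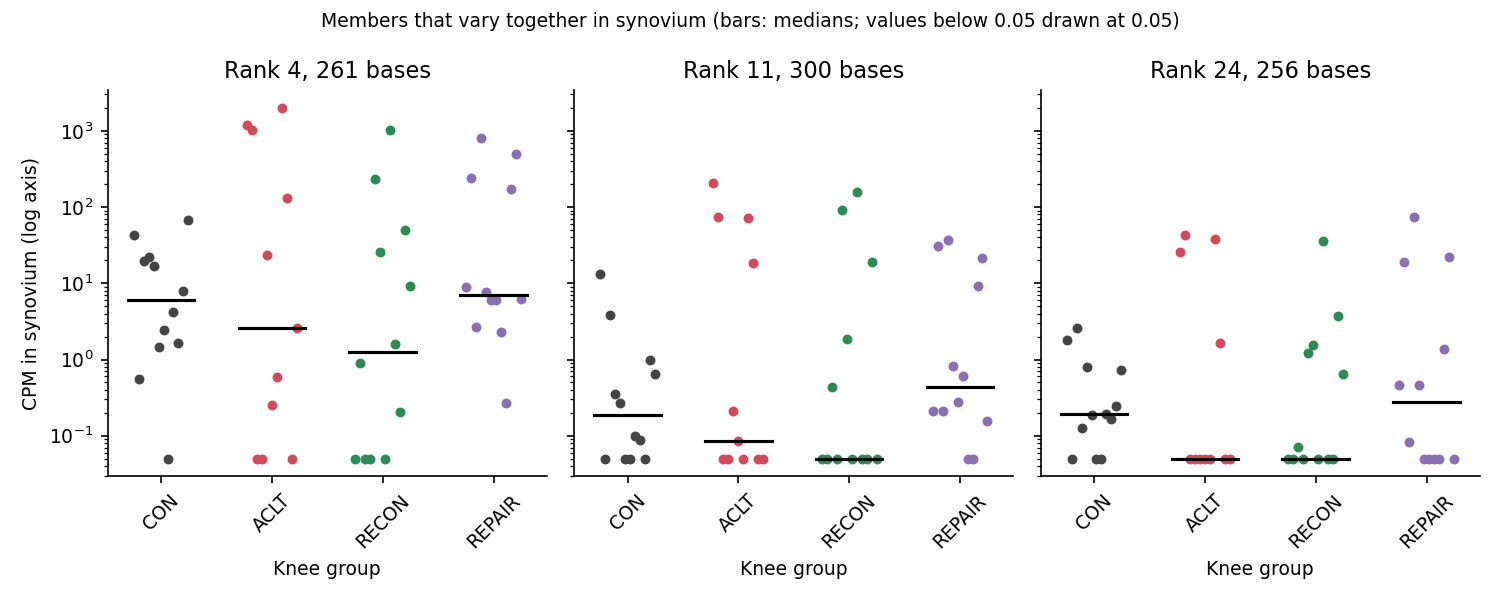
CPM in synovium (y axis, log scale) of the members of rank 4, 11 and 24 in each library of the 4 knee groups (x axis); each point is 1 library, horizontal bars are group medians, and values under 0.05 CPM are drawn at 0.05. Each transcript has a few operated knees far above every CON knee, while no operated group has a median above 6.92 CPM for the member of rank 4 or above 0.442 CPM for the other two.

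RIN was then compared with the members' share of counts. Among the 47 cartilage libraries RIN ran from 4.3 to 7.3 with a median of 5.7, and among the 47 synovium libraries from 2.8 to 7.3 with a median of 5.7. These are descriptions, with no test. In cartilage, Pearson's r between RIN and the share was 0.19 and Spearman's rho 0.17, and after taking out the mean of each knee group r was 0.12. Without the 2 libraries farthest from the median RIN, r was 0.24.

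In synovium r was -0.06 and rho -0.15, and after taking out group means r was 0.04. Without the 2 libraries farthest from the median RIN, r was -0.04. Without the fourth member r was -0.27 and rho -0.25, and -0.14 for r without the 2 farthest libraries. After taking out group means, r and rho without the fourth member were both -0.25. The synovium with the lowest RIN, ACLT 11 at 2.8, had a share of 0.146%, the highest of any operated synovium but 1 once the fourth member was left out.

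Within knee groups the direction varied with the measure. For the share of all members in synovium, rho was -0.31 in CON, -0.07 in ACLT, -0.16 in RECON and 0.00 in REPAIR, and in cartilage it was 0.11, 0.33, -0.12 and 0.45 (n = 12, 11, 12 and 12). Without the fourth member, rho in synovium was negative in all 4 groups, at -0.39, -0.28, -0.17 and -0.22 in the same order, while Pearson's r was negative in 3 of them and 0.09 in RECON. For comparison, RIN and the mean fragment length had a rho of 0.55 in synovium and 0.19 in cartilage, so that synovium libraries from less intact RNA held shorter fragments. The number of members with a count in a synovium library, from 128 to 173, had an r of 0.50 with RIN, 0.54 with mean fragment length and 0.34 with the total count.

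**Figure D5:**
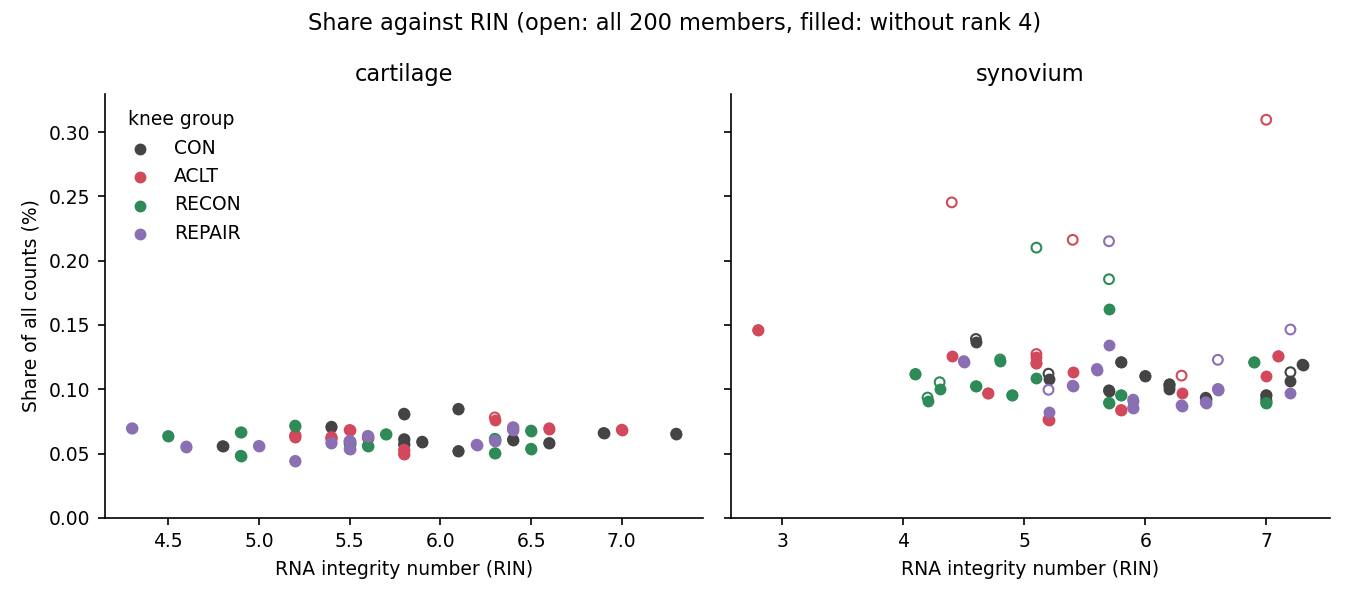
Share of all counts on the short transcripts (y axis, %) against RIN (x axis) in cartilage (left) and synovium (right); each library has an open circle for all 200 members and a filled one without the member of rank 4, in the colour of its knee group. The cartilage shares lie between 0.0443% and 0.0847% over the range of RIN. The highest open circles in synovium, from 0.210% to 0.310%, lie at RIN values from 4.4 to 7.0.

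With the treatment in the fit, 0 members had a slope against RIN that was called in either tissue in edgeR or DESeq2. In synovium this was 0 of 93 members tested, against 0.309% of all transcripts. An unadjusted p under 0.05 was found for 6 (6.45%), against 9.98% of all transcripts. In cartilage it was 0 of 81, against 0.631% of all transcripts. Here 5 members (6.17%) had an unadjusted p under 0.05, against 13.5% of all transcripts. The median slope of the members was -0.02 in synovium and -0.0004 in cartilage, in log2 per unit of RIN, against 0.0037 and -0.0033 over all transcripts.

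Among the 5 most abundant members, the slope nearest to a call was that of ENSSSCT00000019681.2 in synovium, at -0.15 ± 0.05 (log2 per unit of RIN, SE) with an adjusted p of 0.172 in edgeR. In cartilage its slope was 0.11 ± 0.07 with an adjusted p of 0.521. For ENSSSCT00000019675.1 the slopes were -0.07 ± 0.05 in synovium and -0.01 ± 0.09 in cartilage, with adjusted p-values of 0.718 and 0.973.

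Across the 61 members with a mean of at least 1 CPM, Spearman's rho between CPM and RIN ran from -0.41 to 0.54 in synovium, positive for 40 and negative for 21, and from -0.26 to 0.43 in cartilage, positive for 36 and negative for 25. The highest in synovium was that of the member of 148 bases at rank 41, the lowest that of the member of 266 bases at rank 20. In cartilage the highest was that of ENSSSCT00000072495.1. The ends of these ranges were named after their values were seen.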

How the data were processed

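RNA from 2 tissues of 48 knees was depleted of ribosomal RNA and sequenced, and the authors quantified transcripts with Salmon 1.8.0 on the Sscrofa11.1 assembly. The deposited files give, for each library, the estimated counts and TPM values that the authors obtained from Salmon, with the length and effective length of each transcript. TPM values were used only for the share of TPM. Estimated counts were rounded to whole numbers for the tests, and CPM was taken from the unrounded estimated counts.

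Transcripts of at most 300 bases were ranked by mean CPM over 94 libraries, and the first 200 kept. The members and the comparisons were chosen with earlier results of these data known. Library totals ran from 7483049 to 21937198 estimated counts, so that 1 CPM was 7.48 counts in the shallowest library. The precision of low members is limited by these counts. p-values measure the spread between libraries of different knees within a group. In the fit of 8 groups that spread is estimated over all groups together. Except where a block is named, the tissues of a knee and the knees of an animal were taken as independent.

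Counts were tested with edgeR 4.0.16 in R 4.3.3 by its quasi-likelihood test with TMM scaling and 8 groups of tissue and treatment. The filter for low counts was filterByExpr with a minimum count of 10. p-values were adjusted by Benjamini and Hochberg over all transcripts, with a threshold of 0.05. The 3 operated groups were averaged with equal weight against CON. RIN, and the animal of each knee, were read from the study's supplementary list, and RIN slopes were fitted within each tissue beside treatment. The study's own adjustment for unwanted variation was not repeated. Transcripts named were the 5 most abundant, up to 2 in each direction with the smallest adjusted p and at least 1 CPM on average in each group compared, and the shortest and longest of the 50 most abundant. Identifiers could not be matched to gene names with the tables used here, so gene lists and markers were not analysed.

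In simulated counts for the comparison of operated and CON synovium, 28902 transcripts were tested, 103 of the 188 given a change were recovered, and 45 unchanged ones were called. Each change built in was of 1 on the log2 scale, up or down. Only 3 of the 16 members called in operated synovium changed by more, so the recovery does not describe smaller changes. Unchanged transcripts were a larger part of the simulated calls than the threshold on adjusted p is meant to allow. For operated and CON cartilage, 12 unchanged transcripts were called. The adjusted p-values of the surgery comparisons may therefore be too small, and calls near the threshold are uncertain.

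The animal pairs the knees, and the knee pairs the tissues. The mean correlation of deviations from the group means, on log2(CPM + 0.5), was 0.056 between tissues of a knee (47 knees), 0.082 between the synovia and 0.111 between the cartilages of 12 animals. Alternatives were DESeq2 1.42.0 and its size factors, a weaker filter, an offset for effective length, RIN as a covariate, a replicate block, all 96 libraries, and leaving out knee ACLT 11. Chosen after seeing the data were library totals, leaving out knee ACLT 8 or the member of rank 4, dividing shares by TMM factors, and the paired knees without the block.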

Additional observations from a re-analysis of the deposited data

Results flagged for a closer look

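The change after surgery differed between the tissues for ENSSSCT00000054762.3 (240 bases, rank 44), whose interaction of tissue and surgery was -0.72 ± 0.23 (log2, cartilage minus synovium, SE; adjusted p = 0.0355 in edgeR). Its median CPM was 1.41 in CON synovium and 1.76 over the 35 operated synovia, of which 27 were above the CON median and 6 above the highest CON value. The value was -0.76 with an adjusted p of 0.0485 with the knee as a replicate block, and -0.61 with an adjusted p of 0.0935 with library totals. Its counts were whole in 52.1% of the libraries, so that part of its reads were shared with other transcripts.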

How the results depend on the processing

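The number of members called between the tissues of CON knees was 31 and stayed between 30 and 44 under every alternative run except library totals in place of TMM, which gave 50. Between operated and CON synovium the 16 calls stayed between 15 and 21, except with the 24 knees of 12 animals. These gave 1 call with the replicate block and 1 with the same knees and no block, each of a different member. The cause of the loss of calls was not tested. The interaction, with 1 call, gave 2 with the weaker filter, which asks for counts in only 2 libraries, 2 with library totals, 2 with the replicate block and 4 with DESeq2. RIN in cartilage, with 0 calls, gave 2 with that filter, ENSSSCT00000036101.3 and a member of 294 bases at rank 97. These members had a count in only 5 and 3 of the 47 cartilage libraries, so both slopes rest on few libraries with a count. Of all 38606 transcripts tested with that filter, 263 had a positive and 303 a negative slope that was called. Operated against CON cartilage and RIN in synovium gave 0 under all alternatives run. The ratio of CON synovium to CON cartilage shares, 1.69, was 1.13 after division by the TMM factor. The other share ratios moved by less than a spread taken from the SD between libraries. That limit is wide, at 0.51 for operated over CON synovium and 0.71 for ACLT over CON synovium. Without the member of rank 4 these ratios still went from 1.18 to 0.993 and from 1.39 to 1.04. Divided by the TMM factor, with all members, they went the other way, to 1.31 and 1.54. Spearman's rho between share and RIN ran from 0.17 to 0.27 in cartilage and, in synovium, from -0.25 without the member of rank 4 to -0.11 without knee ACLT 11 or the most abundant member.

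Of 127 values of named transcripts under alternatives, 112 kept their side of the threshold and 15 lost it, 7 with the replicate block, 6 with the same knees unblocked, 1 with DESeq2 (ENSSSCT00000036101.3 in operated synovium) and 1 with library totals, and 0 changed direction. The replicate block changed no call of a named transcript between the tissues of CON knees or in the interaction, apart from those of ENSSSCT00000019681.2 and ENSSSCT00000054762.3 between the tissues. Depth limits the 99 untested members, and reads shared among transcripts limit the most abundant ones.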
